A study of Homo sapiens with 4 samples.

Results

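The 3 genes that encode subunits found only in the non-canonical SWI/SNF complex (ncBAF), BRD9, GLTSCR1 and GLTSCR1L, were examined in RNA-seq data from G401, a SMARCB1-deficient line established from a kidney rhabdoid tumour. They were taken by name from 57820 gene models, and all 3 were measured in every library. The data comprised 4 libraries: 2 from G401 cells with BRD9 knocked out by CRISPR-Cas9 (BRD9 KO) and 2 from G401 cells carrying a LacZ control. Both groups were grown in DMEM with 10% FBS and both lack SMARCB1, so every comparison is made within SMARCB1-deficient cells. The study could not obtain BRD9-deficient clones of G401, and it is not stated whether the sequenced BRD9 KO cells were a mixed population. The methods call the 2 libraries of a group biological replicates, but the labels do not say that they came from separate cultures, so the p-values reflect a spread between libraries that may be technical.

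SWI/SNF complexes use the ATPase SMARCA4 or SMARCA2 to move or evict nucleosomes. The canonical BAF and PBAF forms carry SMARCB1 and an ARID protein, whereas ncBAF lacks both and is built around BRD9 and GLTSCR1 or its paralog GLTSCR1L. BRD9 holds a bromodomain, which binds acetylated lysine, and a DUF3512 domain, by which it joins the complex. GLTSCR1 (also named BICRA) and GLTSCR1L (BICRAL) share a conserved region through which they enter ncBAF.

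Estimated counts summed to between 15053195 and 19559200 per library, and mitochondrially encoded genes took 8.15% to 8.48% of them. SMARCB1 had 0 counts in all 4 libraries, which allows up to 0.199 counts-per-million (CPM) in the shallowest library, for counting error only. The markers of G401 were abundant: VIM stood at 1269 and 1276 CPM in BRD9 KO and at 1788 and 1797 CPM in LacZ control, KRT8 at 3738 and 3717 against 2813 and 2771 CPM, and KRT18 at 2744 and 2735 against 2117 and 2114 CPM. All 3 were called by the edgeR test used for the subunits, VIM lower and both keratins higher. Of 5 markers of blood, endothelium, liver and neurons that were measured, PTPRC, HBB and CDH5 were at 0 in all 4 libraries, and ALB and RBFOX3 had between 0 and 5 counts. The part that any of these differences plays in the results was not tested.

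The 3 subunit transcripts did not move together. In BRD9 KO cells BRD9 was lower, at 55.1% of the control CPM, GLTSCR1L was higher, at 131% of the control CPM, and GLTSCR1 did not pass the test. Calls rest on the edgeR quasi-likelihood test of counts, with an adjusted p under 0.05 after Benjamini-Hochberg adjustment over 15288 genes. By that rule 38.6% of all tested genes were called, 20.5% higher and 18.1% lower, so 2 of 3 members called is a count too small to set the family apart from the background.

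BRD9 (ENSG00000028310.13) occupies positions 850406 to 892916 of chromosome 5, minus strand, on GRCh37, the sequence of the hg19 build to which the authors aligned. Its start faces that of TRIP13, a AAA+ ATPase of the spindle checkpoint, whose gene begins 83 bases away on the plus strand at 892999. The promoter windows of both genes are shown because the genes start within a single stretch of DNA. BRD9 was called lower, whereas TRIP13 was called higher by counts only. Each window runs from 250 bases before to 50 bases after the start of transcription in RefSeq on GRCh38.p14, written 5′ to 3′ on the strand of its gene. The BRD9 window, that of its RefSeq start nearest TRIP13, is chr5:892752-893051 and the TRIP13 window is chr5:892634-892933. Capitals mark the 182 bases that the windows have in common, so that the capitals of one are the reverse complement of those of the other.
BRD9: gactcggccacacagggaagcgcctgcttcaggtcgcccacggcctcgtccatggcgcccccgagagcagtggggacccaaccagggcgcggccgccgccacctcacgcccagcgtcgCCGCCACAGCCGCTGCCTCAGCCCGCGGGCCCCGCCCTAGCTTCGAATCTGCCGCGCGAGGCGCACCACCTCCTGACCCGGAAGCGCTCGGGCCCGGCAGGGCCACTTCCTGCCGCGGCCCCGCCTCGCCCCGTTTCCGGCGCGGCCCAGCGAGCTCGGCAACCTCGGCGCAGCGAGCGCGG
TRIP13: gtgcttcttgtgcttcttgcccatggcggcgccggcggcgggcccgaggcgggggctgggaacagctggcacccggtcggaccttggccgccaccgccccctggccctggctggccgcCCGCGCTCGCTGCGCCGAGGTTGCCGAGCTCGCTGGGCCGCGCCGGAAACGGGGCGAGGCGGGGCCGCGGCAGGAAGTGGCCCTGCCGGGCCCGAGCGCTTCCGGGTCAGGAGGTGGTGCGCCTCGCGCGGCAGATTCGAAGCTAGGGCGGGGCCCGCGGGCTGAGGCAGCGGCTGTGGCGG
The windows are rich in G and C, at 77.0% for BRD9 and 78.0% for TRIP13, against a median of 58.7% over 35116 RefSeq promoter windows of that length. The core of ETS factor motifs, CCGGAA on either strand, occurs 2 times in the common bases, and 17.2% of all windows hold at least 1 such match. Neither window holds the letters of a CRE, TGACGTCA, which are in 1.8% of all windows on either strand. The letters TGANTCA, for AP-1, are likewise in neither window and in 7.7% of all windows. The same holds for the TATA box letters TATAAA, found in 11.5% of all windows. A match is a match of letters and not a measured binding site.

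The BRD9 transcript remained detectable in both knockout libraries and was lower than in both controls. Its estimated counts were 573 and 437 in BRD9 KO replicates 1 and 2, against 726 and 897 in LacZ control replicates 1 and 2. Scaled to library size (CPM after TMM scaling) these were 29.4 and 26.8 CPM in BRD9 KO and 48.2 and 53.8 CPM in LacZ control. The groups did not overlap, and their means were 28.1 ± 1.86 and 51.0 ± 4.0 CPM (SD, n = 2 each). The log2 fold change was -0.86 (standard error 0.07, 95% interval -0.995 to -0.722, edgeR adjusted p = 2.84e-09). Of the 15288 genes tested, 574 had a more negative fold change, so BRD9 was not at the extreme of the table. Taken over any control library, any knockout library had between 49.7% and 61.0% of its BRD9 CPM. A CRISPR-Cas9 edit acts on the protein by small insertions or deletions, and the transcript is no measure of how much protein was left. The paper shows BRD9 protein loss in G401 by western blot, but does not tie that blot to these libraries. In bulk RNA, fewer cells with the transcript and less transcript per cell cannot be told apart.

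Dividing by transcript length did not remove the difference. In transcripts-per-million (TPM), which the authors computed from counts and effective length, BRD9 stood at 22.95 and 18.7 TPM in BRD9 KO and at 34.5 and 38.9 TPM in LacZ control. The means were 20.8 ± 3.01 and 36.7 ± 3.09 TPM (SD, n = 2 each), or 56.8% of control. On the log2(TPM + 1) scale, which understates the change of low genes, the difference was -0.79 (95% interval -1.10 to -0.49, limma adjusted p = 0.0179), and 13.3% of the 15859 genes tested that way were called. This call was lost without BRD9 KO replicate 2 (-0.65, limma adjusted p = 0.0508) and without LacZ control replicate 2 (-0.71, adjusted p = 0.0647). RSEM also gives a posterior mean TPM for each library, which was 24.6 and 21.7 in BRD9 KO and 37.3 and 40.6 in LacZ control. Its credibility intervals cover read assignment and counting but not replicate spread. They ran from 21.5 to 27.9 and from 18.6 to 25.3 TPM in BRD9 KO. In LacZ control they ran from 33.0 to 41.6 and from 36.8 to 44.8 TPM. No BRD9 KO interval met a LacZ control interval.

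**Figure D1:**
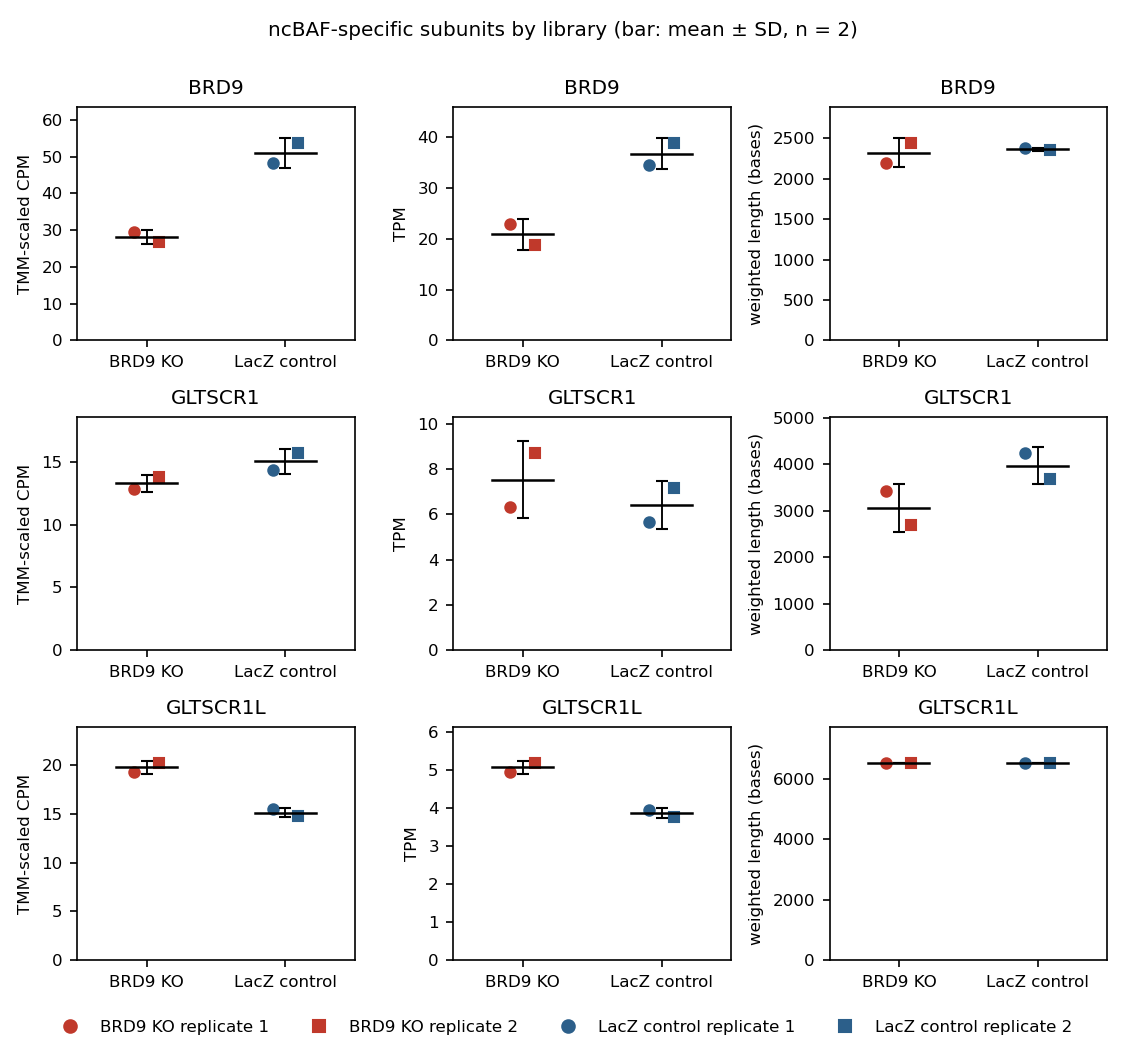
TMM-scaled CPM, TPM and weighted transcript length in bases for each ncBAF-specific subunit, with one point per library, a line at the mean and a bar of 1 SD (n = 2 per group). The BRD9 points at 29.4 and 26.8 CPM lie below both controls, those of GLTSCR1L at 19.2 and 20.2 CPM above both, and the GLTSCR1 TPM values overlap.

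Whether the form of the BRD9 transcript changed was asked with the length column of the RSEM tables, the mean length of a gene's transcripts weighted by the estimated share of each. This length moves only when the estimated shares of the transcripts move. The files list 22 transcripts of BRD9. In GENCODE v44, 3 of these are protein coding, 9 are targets of nonsense-mediated decay, 5 retain an intron, 2 have no defined coding sequence and 3 are no longer listed. The weighted length of BRD9 was 2199 and 2449 bases in BRD9 KO and 2379 and 2352 bases in LacZ control. The 2 knockout libraries lay on either side of both controls, so the groups overlapped. The means were 2324 ± 177 and 2366 ± 19.0 bases (SD, n = 2 each), which corresponds to a log2 ratio of -0.028 (95% interval -0.23 to 0.18, limma adjusted p = 0.975). A shift in mean length of up to about that interval could not be seen with these libraries, and a change in transcript shares that leaves the mean length as it is would not be seen at all. The log2 ratio turned to 0.050 without BRD9 KO replicate 1.

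The 2 BRD9 KO libraries lay further apart in BRD9 length than the 2 LacZ control libraries, a difference that was not tested. The 2 BRD9 KO libraries differed by 250 bases and the 2 LacZ control libraries by 26.9 bases, while the difference of the group means was -42.2 bases. On the log2 scale the gap between the BRD9 KO replicates was 0.16, which 20.6% of 12632 genes exceeded. The gap between the LacZ control replicates was 0.016, which 77.5% of genes exceeded. Among 4911 genes of similar mean count, 12.8% exceeded the BRD9 KO gap and 77.9% the LacZ control gap. RSEM assigned BRD9 reads to the gene with little doubt, since the posterior SD of the count was 0.278% to 0.423% of the count in the 4 libraries, but that figure does not cover how reads were divided among the 22 transcripts.

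Across the transcriptome no gene passed the same length test. Of 12632 genes with more than 1 transcript and a length that differed between libraries, 0 (0%) were called by limma, while 1043 had an unadjusted p under 0.05. The length differences of the members are thus read against a test in which no gene of any size was called.

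**Figure D2:**
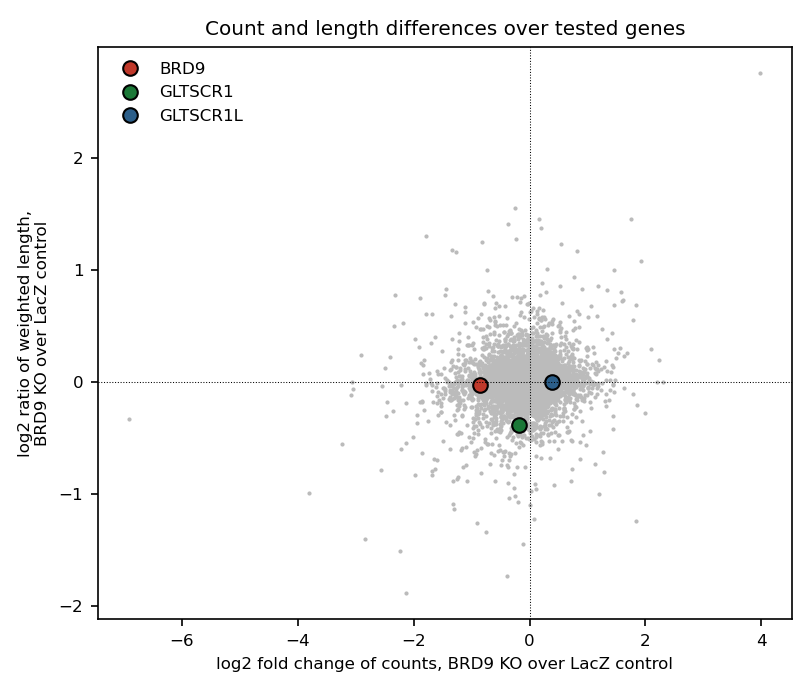
Log2 fold change of counts (x axis) against the log2 ratio of weighted transcript length (y axis), BRD9 KO over LacZ control, with one grey point for each of 12632 genes and the ncBAF-specific subunits in colour. BRD9 sits at -0.86 and -0.028, GLTSCR1 at -0.18 and -0.38, and GLTSCR1L at 0.38 and 0.0017.

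GLTSCR1L, the paralog of GLTSCR1, was the member that rose. The gene (ENSG00000112624.8) lies on the plus strand of chromosome 6, from 42749790 to 42836296 on GRCh37. It had 375 and 330 counts in BRD9 KO and 233 and 246 counts in LacZ control, which is 19.2 and 20.2 CPM against 15.5 and 14.8 CPM. Both knockout libraries were above both controls, with means of 19.7 ± 0.687 and 15.1 ± 0.494 CPM (SD, n = 2 each). The log2 fold change was 0.38 (standard error 0.08, 95% interval 0.21 to 0.56, edgeR adjusted p = 0.00124), a 1.30-fold difference, and 22.4% of tested genes had a larger change in either direction.

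Per length GLTSCR1L was the least abundant of the 3 members in every library. It stood at 4.95 and 5.19 TPM in BRD9 KO and at 3.95 and 3.77 TPM in LacZ control, again without overlap. The limma test on log2(TPM + 1) gave 0.32 (95% interval -0.03 to 0.67, adjusted p = 0.190), so that the call of the count test was not met on this scale, while a count model with effective length as an offset gave 0.38 (edgeR adjusted p = 0.0338). Its 2 listed transcripts are both protein coding. The weighted length was 6530 bases in both BRD9 KO libraries and in LacZ control replicate 1. In LacZ control replicate 2 it was 6515 bases. The value of 6515 bases is exactly the length of one of the 2 transcripts (ENST00000394168.1), so in that library all GLTSCR1L reads were placed on it. The 2 values seen differ by only 15 bases.

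GLTSCR1 gave different directions with and without correction for length, and passed on neither. The gene (ENSG00000063169.6) lies on the plus strand of chromosome 19, from 48111453 to 48206534 on GRCh37. Its counts were 250 and 225 in BRD9 KO and 216 and 262 in LacZ control. At 12.8 and 13.8 CPM in BRD9 KO and 14.3 and 15.7 CPM in LacZ control, both knockout libraries were below both controls, which alone is not a call. The log2 fold change of -0.18 did not pass (95% interval -0.38 to 0.02, edgeR adjusted p = 0.154). It was -0.24 without LacZ control replicate 1 and -0.11 without LacZ control replicate 2, and was called in neither case. In TPM it stood at 6.34 and 8.73 in BRD9 KO and at 5.66 and 7.17 in LacZ control, which overlap, and the difference was 0.20 (95% interval -0.29 to 0.69, limma adjusted p = 0.543). With effective length as an offset in the count model it was 0.21 (edgeR adjusted p = 0.474). These values concern RNA only. For the protein, the paper reports that GLTSCR1 left the complex and was largely degraded when BRD9 was lost in G401.

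The estimated length of GLTSCR1, by which TPM and the offset divide, was shorter in the knockout libraries. It was 3432 and 2691 bases in BRD9 KO and 4250 and 3683 bases in LacZ control, without overlap, which alone is not a call. The means were 3062 ± 523 and 3966 ± 400.8 bases (SD, n = 2 each), a log2 ratio of -0.38 that did not pass (95% interval -0.89 to 0.13, limma adjusted p = 0.688). Replicates of a group differed by 740 bases in BRD9 KO and by 567 bases in LacZ control, and only 6.61% and 14.8% of genes had a wider gap on the log2 scale. The files list 3 transcripts of GLTSCR1, of which 2 are protein coding and 1, ENST00000602258.1, is a transcript model of 3312 bases that retains an intron. The mean of 2691 bases in BRD9 KO replicate 2 is below the length of that model, so a shorter model carried weight there. With 1 library left out the log2 ratio ran from -0.56 (without BRD9 KO replicate 1) to -0.21 (without BRD9 KO replicate 2). These lengths rest on 216 to 262 counts per library. In GENCODE v44, exons of GLTSCR1 share 87 bases with a long noncoding RNA gene on the opposite strand. That gene is not among the gene models used, and the library kit does not mark strand. What part its reads had in the GLTSCR1 values was not tested.

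**Figure D3:**
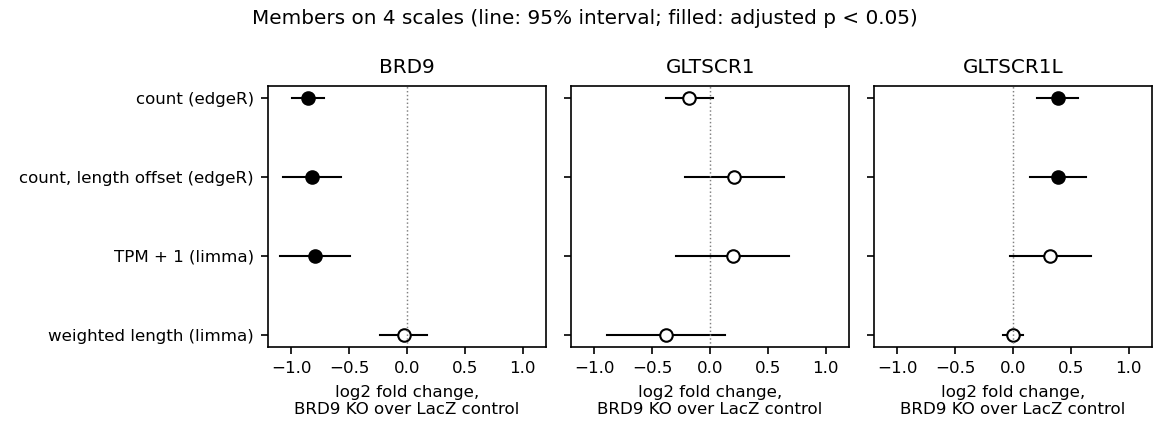
Log2 fold change, BRD9 KO over LacZ control, of each ncBAF-specific subunit on 4 scales (counts, counts with an effective length offset, TPM + 1 and weighted length), with lines for the 95% interval and filled points where the adjusted p was under 0.05. BRD9 lies near -0.8 on the first 3 scales, GLTSCR1 turns from -0.18 for counts to 0.21 with the offset and 0.20 in TPM, and GLTSCR1L is called on both count scales only.

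The proportions of the 3 transcripts differed accordingly. BRD9 was the most abundant member per length in all 4 libraries. Its TPM was 2.03 and 1.34 times the summed TPM of GLTSCR1 and GLTSCR1L in BRD9 KO, against 3.59 and 3.55 times in LacZ control. The summed TPM of the 2 paralogs was 11.3 and 13.9 in BRD9 KO and 9.61 and 10.9 in LacZ control. The ratio of GLTSCR1L to GLTSCR1 counts was 1.5 and 1.47 in BRD9 KO and 1.08 and 0.939 in LacZ control. In TPM that ratio was 0.781 and 0.595 in BRD9 KO and 0.698 and 0.526 in LacZ control, so that the groups separated in counts and overlapped per length.

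No gene beside BRD9 was called lower. TRIP13 stood at 67.8 and 65.6 CPM in BRD9 KO and at 61.8 and 60.9 CPM in LacZ control, and its log2 fold change was 0.12 (95% interval 0.04 to 0.21, edgeR adjusted p = 0.0231), which was not called with the length offset (adjusted p = 0.0942) or in TPM (limma adjusted p = 0.105). The ratio of BRD9 to TRIP13 counts was 0.434 and 0.407 in BRD9 KO and 0.780 and 0.884 in LacZ control. ZDHHC11, of the palmitoyltransferase family, lies on the same strand and its exons overlap those of BRD9 by 222 bases in GENCODE v44. It had 8.26 and 7.59 CPM in BRD9 KO and 6.77 and 8.10 CPM in LacZ control, which overlap (log2 fold change 0.09, edgeR adjusted p = 0.642). Reads from the overlapping bases are divided between the 2 genes by a model. ZDHHC11B, the nearest tested gene on the other side at 65562 bases, had 3.80 and 3.92 CPM in BRD9 KO and 3.05 and 2.82 CPM in LacZ control (0.39, edgeR adjusted p = 0.142).

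**Figure D4:**
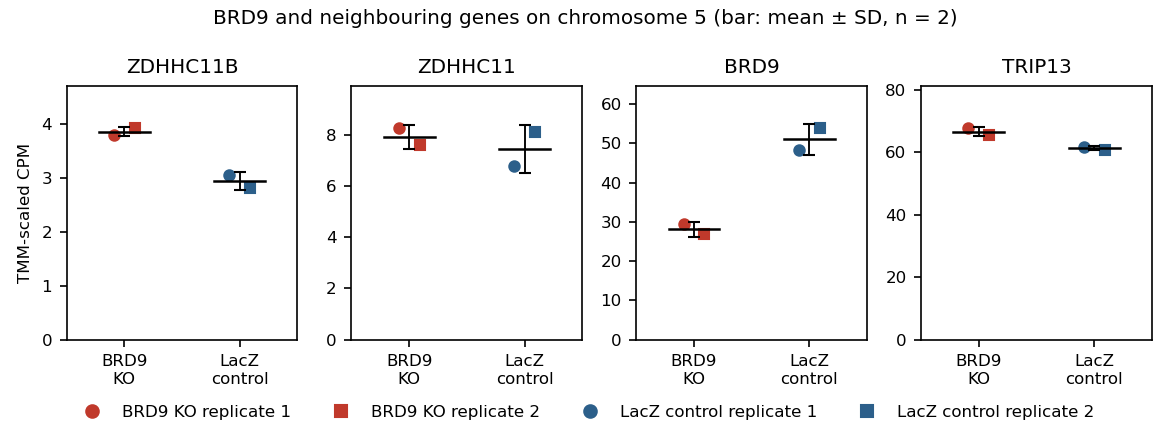
TMM-scaled CPM of BRD9 and 3 neighbouring genes in each library, with a line at the mean and a bar of 1 SD (n = 2 per group) and a separate y axis for each gene. BRD9 is lower in both BRD9 KO libraries (29.4 and 26.8 against 48.2 and 53.8 CPM). TRIP13, which starts 83 bases away, is higher in both (67.8 and 65.6 against 61.8 and 60.9 CPM).

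The neighbours of the paralogs had log2 fold changes of counts between -0.17 and 0.23. On either side of GLTSCR1, NAPA, a SNARE disassembly factor, was higher (log2 fold change 0.23, edgeR adjusted p = 0.000441) and GLTSCR2, a nucleolar protein unrelated to GLTSCR1 despite its name, was lower (-0.13, edgeR adjusted p = 0.000567), and neither was called with the length offset (adjusted p of 0.146 and 0.722). Beside GLTSCR1L, RPL7L1, a ribosomal-protein-like gene that begins 11058 bases further on, was higher (0.17, edgeR adjusted p = 7.57e-06). RPL7L1 was also called with the length offset (0.22, edgeR adjusted p = 0.00398) and in TPM (0.23, limma adjusted p = 0.0296). TBCC, a tubulin folding cofactor, was at -0.17 and not called (edgeR adjusted p = 0.125).

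Subunits that ncBAF shares with the other complexes had log2 fold changes between -0.29 and 0.37, against -0.86 for BRD9. Of 11 listed, 10 were tested, and 1 was higher, 5 were lower and 4 were not called, where 20.5% of all tested genes were called higher and 18.1% lower. The list had a median log2 fold change of -0.10 against -0.0061 over all tested genes. SMARCA2, the alternative ATPase, was listed at 0 in all 4 libraries. SMARCA4, the ATPase, had 532 and 531 CPM in BRD9 KO and 602 and 604 CPM in LacZ control, and its difference of -0.18 on the log2 scale (edgeR adjusted p = 4.68e-09) was also called in TPM (-0.25, limma adjusted p = 0.00979). ACTB, the actin subunit, was lower at -0.29 (edgeR adjusted p = 1.49e-16). BCL7B, a small accessory subunit, was higher at 0.37 by counts (edgeR adjusted p = 0.000351) but was not called with the length offset (0.16, adjusted p = 0.253). The scaffold SMARCC1 was at -0.11 (edgeR adjusted p = 0.00233, or 0.226 with the offset), and SMARCD1 was at -0.09 by counts (edgeR adjusted p = 0.0334) and at 0.03 with the offset (adjusted p = 0.735), so that its direction depends on the length. The number called in this list was 6, when 5901 of all tested genes were called. It was 3 with DESeq2, which called 3585 of 28972 genes fitted, and 2 with the offset, which called 3083 of 15288. The number in this list also varied with the library left out. Over all genes the number called was lower with DESeq2 and with the offset too, and the cause of these changes was not tested.

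Subunits found only in BAF or PBAF numbered 15, of which 12 were tested. Of these 1 was higher, 3 were lower and 8 were not called, so that 4 of 12 were called where 38.6% of all tested genes were, and the median log2 fold change was -0.05. SMARCB1, DPF3 and ACTL6B had between 0 and 2 counts in each library and were not tested. BRD7, the PBAF paralog of BRD9, had 78.8 and 80.6 CPM in BRD9 KO and 84.3 and 82.1 CPM in LacZ control, and its log2 fold change of -0.06 was not called (95% interval -0.14 to 0.02, edgeR adjusted p = 0.201). ARID2, the DNA-binding subunit of PBAF, was lower at -0.36 by counts (edgeR adjusted p = 5.52e-07), whereas with the length offset it was at -0.32 and was not called (adjusted p = 0.0514). Among all 25 subunits tested, BRD9 had the most negative fold change and GLTSCR1L the most positive, just above BCL7B.

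**Figure D5:**
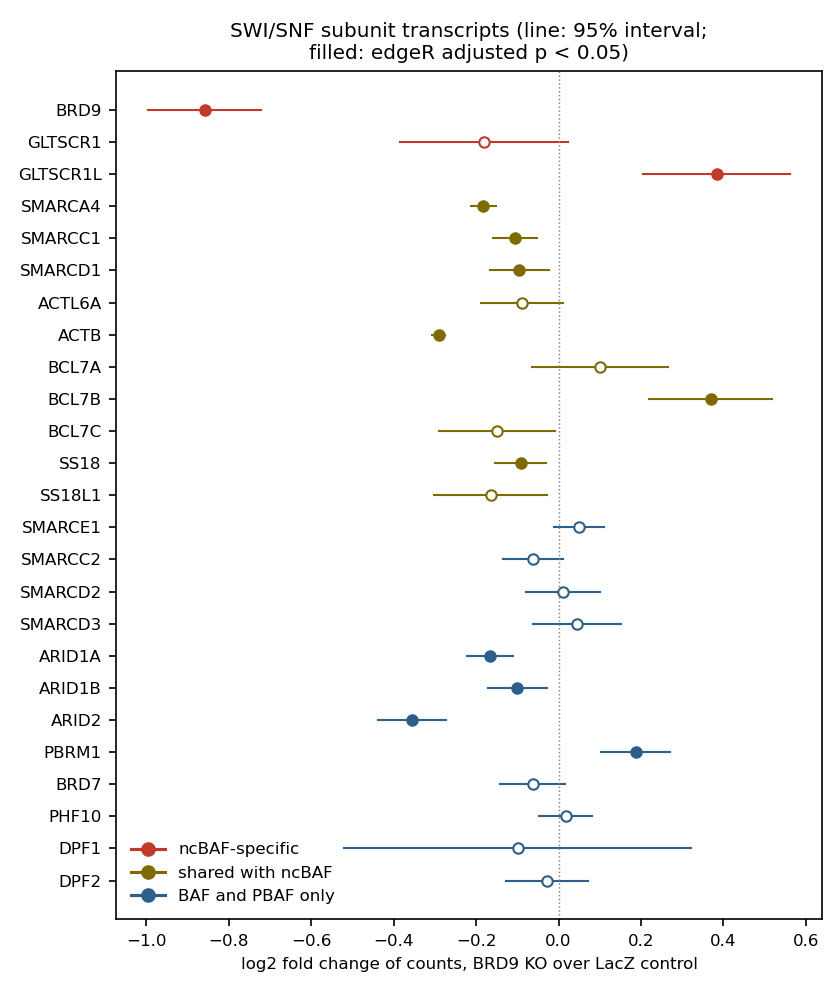
Log2 fold change of counts, BRD9 KO over LacZ control, for the tested SWI/SNF subunits in 3 groups, with lines for the 95% interval and filled points where the edgeR adjusted p was under 0.05. BRD9 lies at -0.86, whereas the shared subunits lie between -0.29 and 0.37 and the BAF and PBAF subunits between -0.36 and 0.19. Among the called subunits, SMARCD1 turns to 0.03 with the length offset.

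Genes with the most similar pattern over the 4 libraries were found by the distance between centred log2 CPM values, among the 11224 tested genes that averaged 5 CPM or more. Closest to BRD9 was RGS5, a regulator of G-protein signalling, at 23.9 and 21.98 CPM in BRD9 KO and 40.6 and 44.7 CPM in LacZ control (distance 0.040), followed by GRIN2D, an NMDA receptor subunit (0.050), and ZNF333, a zinc finger gene (0.052). Closest to GLTSCR1 were ST7L (0.0065), RNF168, a ubiquitin ligase of the DNA damage response (0.019), and RP11-496H1.1 (0.020). Closest to GLTSCR1L were IDUA, a lysosomal enzyme, at 15.03 and 15.7 CPM in BRD9 KO and 12.1 and 11.4 CPM in LacZ control (0.014), CIRH1A (0.016) and OPTN, an autophagy receptor (0.019). With 4 libraries a close pattern is a description of these libraries only.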

How the data were processed

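RNA-seq of 2 BRD9 KO and 2 LacZ control libraries of G401 was used. Alignment to hg19 by the authors used STAR, and quantification used RSEM. DESeq2 also appears in the submitters' processing notes, all without versions. The labels name a Direct-zol extraction and the methods Trizol with column cleanup, and the library kit named does not mark strand. The authors deposited for each gene the expected count (estimated count, with no scaling between libraries), TPM within a library, weighted and effective length in bases, and the posterior SD of the count. They also deposited the posterior mean TPM, recorded here as a score, and the bounds of its credibility interval, recorded as a signal. The level of that interval is not given in the sources used here.

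Expected counts were rounded and tested with edgeR 4.0.16 in R 4.3.3 (TMM, filterByExpr, robust quasi-likelihood test, two-sided, Benjamini-Hochberg over 15288 genes, no covariate). TPM was tested with limma 3.58.1 on log2(TPM + 1), for genes with at least 1 TPM in 2 libraries, and length with limma on log2 bases, with a variance prior that followed the mean count. Effective length was shorter than length by 74 bases in 97.9% of gene models. Fold changes are BRD9 KO over LacZ control. Replicates differed by more than sampling noise (chi-square per degree of freedom 1.57 in BRD9 KO and 1.60 in LacZ control) and were kept apart. The fits were also run on simulated data whose spread was taken from these libraries. The outcome is not given, and no result here rests on it.

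Coordinates come from GENCODE v44 on GRCh37, matched by identifier for 55538 of 57820 models. Only 4 of 22 BRD9 transcripts have the same version there. Promoters come from RefSeq on GRCh38.p14, with 2, 2 and 3 windows for BRD9, GLTSCR1 and GLTSCR1L. The endothelial marker PECAM1 was not analysed here.

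The members, lists and tests were chosen with earlier results of these data known. The text names the members, SMARCA4, SMARCC1, SMARCD1, BRD7 and any listed subunit called with a fold past 1.2. It also names the nearest tested genes, tested genes with overlapping exons, and the 3 genes closest in pattern to each member. Alternatives were DESeq2 1.42.0, limma-voom, other scalings, filters, pseudocounts and RSEM estimates, an effective length offset, a replicate block and each library left out.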

Additional observations from a re-analysis of the deposited data

How the results depend on the processing

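BRD9 counts stayed lower and called under all 14 alternatives (-0.93 to -0.77 on the log2 scale, edgeR, DESeq2 or limma adjusted p up to 0.00164), and GLTSCR1L counts stayed higher and called under all 14 (0.35 to 0.42, adjusted p up to 0.0338). The BRD9 difference in TPM was not called without a filter on low values (-0.79, limma adjusted p = 0.0593), and ran from -0.93 to -0.65 with each library left out. GLTSCR1 counts turned to 0.21 with the effective length offset, and GLTSCR1 in TPM ran from -0.0071 to 0.40 with each library left out, turning without BRD9 KO replicate 2. BRD9 length ran from -0.11 to 0.050 with each library left out, turning without BRD9 KO replicate 1. GLTSCR1L length gave no value without LacZ control replicate 2, since it was then the same in every library. GLTSCR1 length ran from -0.56 to -0.21 and GLTSCR1 counts from -0.24 to -0.11 with each library left out. The number of shared subunits called was 6 (5901 of all genes called), 3 with DESeq2 (3585 of all genes), 2 with the offset (3083), 7 with the stricter filter (5914) and 3 to 5 with each library left out (4195 to 4960), while that of BAF and PBAF subunits was 3 or 4 throughout. The causes of these changes were not tested. The library left alone in its group was taken to vary as the other group does.

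The replicate numbers are shared by the groups, but nothing in the labels says that a number marks a batch, and the replicate differences of the groups correlated at -0.054 over 15288 genes. With a replicate block BRD9 counts gave -0.86 (edgeR adjusted p = 3.39e-14), GLTSCR1L counts 0.38 (adjusted p = 0.000495) and GLTSCR1 counts -0.18 (adjusted p = 0.180). The block moved the count of called genes to 6109, against 5901 without it, and changed no call of a member. The transcript shares of GLTSCR1 rest on 216 to 262 counts per library.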
